A study of Mus musculus with 13 samples.

Results

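The structural noncoding RNAs described here are the 7SL RNA Rn7s1, the 7SK RNA Rn7sk, the RNase P RNA Rpph1, the U1 small nuclear RNA Rnu1a1, the 5S ribosomal RNA n.R5s100 and the RNase MRP RNA Rmrp. They are 6 of 27111 rows with a gene name, found by exact row name, and they were selected on the readout, because 5 of them were among the 10 rows with the highest mean counts and Rmrp is a relative of Rpph1. Their high abundance is therefore a description and not a finding. Rpph1, the least abundant of the 5, had 80594 counts on average and rank 8, while the rows at ranks 10 and 11, ATP6 and Ubb, had 45940 and 36512. A small nuclear RNA row that is no member, LOC115487916, lay between them at rank 9 with 58084 counts. Rmrp was listed at 0 in all 13 samples, so 5 of the 6 members carry counts.

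These RNAs are never translated and act as the cores of RNA-protein machines. Rn7s1 is the scaffold of the signal recognition particle, which docks ribosomes that make secreted and membrane proteins onto the endoplasmic reticulum. Rnu1a1 pairs with the start of introns, n.R5s100 sits in the large ribosomal subunit, Rn7sk holds the elongation kinase P-TEFb inactive, Rpph1 trims the leaders of transfer RNA precursors, and Rmrp works in ribosomal RNA maturation. RNA polymerase II makes U1, and RNA polymerase III makes the others. Most of them lack a poly(A) tail, so they are seen in random-primed total RNA libraries and largely missed by poly(A) selection.

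RNA came from Sertoli cells, the somatic nurse cells of the seminiferous tubule, sorted from testes of adult wild-type C57Bl/6J males aged 3 to 5 months. The 6 control males were left undisturbed, and the 7 MSUS males had been parted from their mothers without a fixed schedule for 3 h each day over postnatal days 1 to 14, while the mothers were stressed by cold swim or restraint. Each library was made from 5 ng total RNA with 12 PCR cycles, held 12701664 to 18649819 counts, and 20.7% to 26.7% of these fell on features with no gene name, so shares below are percentages of the named counts. The summed level of 5 Sertoli cell markers was 12146 to 14168 CPM (a library's counts scaled to the same named total) in controls and 12184 to 14281 CPM in MSUS samples. The 4 elongated spermatid markers summed to 730 to 1876 CPM over both groups, and the spermatocyte, Leydig, peritubular myoid and endothelial lists each stayed at or below 184 CPM. The 4 macrophage markers, of which Lyz2 was at 0 everywhere, summed to 0.16 to 0.84 CPM in controls and 0 to 1.98 CPM in MSUS samples. No marker list differed between the groups by the exact permutation test, with p from 0.166 to 0.723. In bulk RNA, fewer cells of a type and less RNA per cell cannot be told apart.

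The sequence of Rnu1a1 is shown because the U1 copies described further on are compared with it base by base. It was read from the GENCODE vM21 transcripts on the GRCm38 build, the same build as the release the authors used. In Rnu1a1 the capitals mark the stretch that pairs with the 5′ splice site.
Rnu1a1: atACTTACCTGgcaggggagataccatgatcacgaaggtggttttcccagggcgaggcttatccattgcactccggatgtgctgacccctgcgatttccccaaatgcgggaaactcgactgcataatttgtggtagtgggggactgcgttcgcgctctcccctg

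Rn7s1 is 300 nucleotides long, and the 5S row, which matches the annotated n-R5s100, has 119. Rnu1a1 lies at chr11:87422867-87423030 on the plus strand inside the gene Tex14 and has 164 nucleotides. Rn7sk, of 331 nucleotides, lies at chr9:78175303-78175633 on the minus strand. Rpph1, of 319 nucleotides, lies at chr14:50807449-50807767 on the minus strand and overlaps Ccnb1ip1.

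The 5 members with counts held 13.4% ± 1.56 (SD, n = 6) of the named counts in controls and 12.9% ± 2.36 (SD, n = 7) in MSUS samples. Values ran from 11.2% to 15.5% in controls and from 8.99% in MSUS 26 to 16.3% in MSUS 23, so both the lowest and the highest share were in MSUS samples. The difference of -0.418 percentage points lay inside the spread (exact permutation test over 1716 group assignments, two-sided, p = 0.721; smallest possible p = 0.000583), and it was 0.243 without MSUS 26. Rn7s1 alone made up 71.7% to 78.6% of the members' counts.

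**Figure D1:**
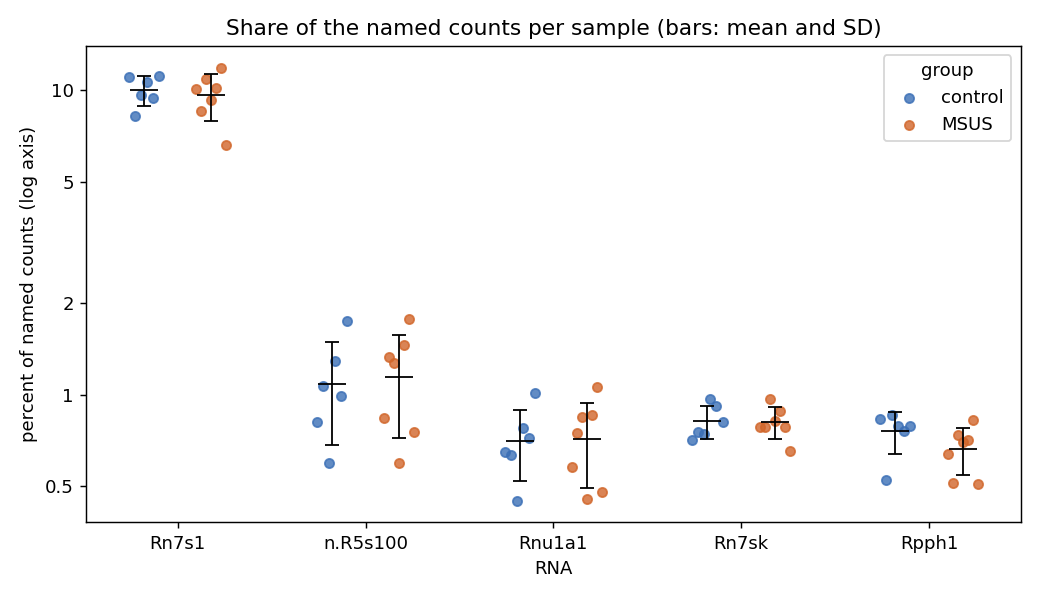
Percent of the named counts on each RNA (log axis) in the 6 control and 7 MSUS samples; each point is 1 sample, and the black bars give the mean and SD. Rn7s1 sits near 10% in both groups, the other RNAs lie between 0.448% and 1.77%, and the groups overlap for every RNA.

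Rn7s1 was the most abundant row in 13 of 13 samples. In controls its lowest, median and highest shares were 8.21%, 10.1% and 11.1% of the named counts, and in MSUS samples they were 6.59%, 10.1% and 11.9%. The groups overlapped almost entirely, and on the log2 CPM scale 4 of 7 MSUS values exceeded the mean of controls. The log2 fold change, MSUS against control, was -0.06 ± 0.12 (SE), with a 95% interval from -0.30 to 0.19 (limma voom, p = 0.638, adjusted p = 0.954; exact permutation test of the shares, p = 0.655). The interval spans changes from 0.811-fold to 1.14-fold, and the estimate was 0.04 without MSUS 26.

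The 5S RNA n.R5s100 had shares of 0.598%, 1.02% and 1.75% (lowest, median and highest) in controls and of 0.595%, 1.27% and 1.77% in MSUS samples. The lowest and highest values of the groups nearly coincided. Its log2 fold change was 0.08 ± 0.26 (SE, 95% interval -0.46 to 0.63; limma voom, p = 0.751, adjusted p = 0.972; exact permutation test of the shares, p = 0.791). It varied most among the members, by 3.31-fold between MSUS 11 and MSUS 23.

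The U1 RNA Rnu1a1 had shares of 0.448%, 0.682% and 1.01% in controls and of 0.454%, 0.749% and 1.06% in MSUS samples. Control 12, MSUS 11 and MSUS 26 were low and control 24 and MSUS 23 were high, so extremes came from both groups. Its log2 fold change was 0.02 ± 0.21 (SE, 95% interval -0.42 to 0.45; limma voom, p = 0.935, adjusted p = 0.989; exact permutation test of the shares, p = 0.934).

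Rn7sk was the steadiest of the 5 RNAs. Its shares were 0.708%, 0.781% and 0.963% in controls and 0.654%, 0.785% and 0.968% in MSUS samples, again overlapping. The log2 fold change was 0.01 ± 0.09 (SE, 95% interval -0.18 to 0.19; limma voom, p = 0.938, adjusted p = 0.990; exact permutation test of the shares, p = 0.930).

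Rpph1 was the member whose group means lay farthest apart. Its shares were 0.526%, 0.787% and 0.857% in controls and 0.510%, 0.697% and 0.827% in MSUS samples. Control 10 lay far below the other controls, which were all at or above 0.760%, and 6 of 7 MSUS samples lay below that value. The log2 fold change was -0.19 ± 0.13 (SE, 95% interval -0.45 to 0.08; limma voom, p = 0.156, adjusted p = 0.878), and the exact permutation test of the shares gave p = 0.160. Without control 10 the log2 fold change was -0.29 (limma voom, p = 0.0124, adjusted p = 0.575; exact permutation test of the shares, p = 0.0253). Without MSUS 23 it was -0.25 (limma voom, p = 0.0496, adjusted p = 0.804; exact permutation test of the shares, p = 0.0779). With the ribosomal protein gene score as a covariate, added after the data were seen, it was 0.00057, with a 95% interval from -0.17 to 0.17.

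At p under 0.05, 0 of 5 members were called by limma voom, by edgeR's quasi-likelihood test and by DESeq2. Among all 14421 genes tested by limma voom, 781 or 5.42% passed that threshold, 3.02% as higher in MSUS and 2.4% as lower, so a count of 0 among 5 RNAs does not set them apart. The count was 1 without control 10 or without MSUS 23, and in both cases the RNA was Rpph1. At an adjusted p under 0.05, 0 genes or 0% passed in limma, and 0 in edgeR and DESeq2, which had 793 and 835 genes at unadjusted p under 0.05.

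**Figure D2:**
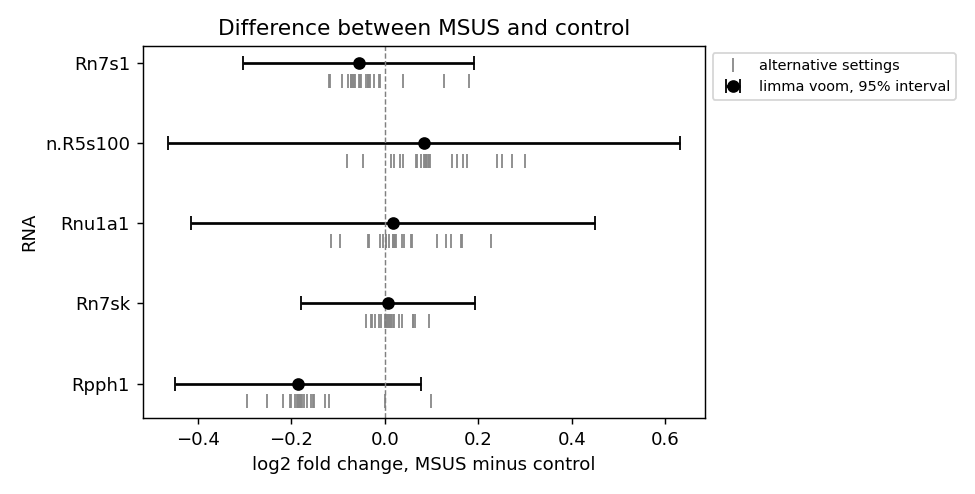
Log2 fold change of each RNA, MSUS minus control, from limma voom with its 95% interval (black), and the values under the alternative settings (grey ticks). Every interval includes 0, and the intervals of n.R5s100 and Rnu1a1 are the widest.

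The RNase MRP RNA could not be compared. Rmrp has 1 row, listed at 0 in every sample, as was the telomerase RNA row Terc. The annotation holds 2 nested entries named Rmrp, of 271 and 281 nucleotides, at chr4:43492788-43493058 and chr4:43492783-43493063 on the minus strand, and the shorter one lies whole within the longer. Which entry the row stands for cannot be told from the table, so a 0 here is no measure of whether the cells hold this RNA.

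Counts rise with the length of an RNA, so levels were compared between RNAs as CPM per kilobase of annotated length. On that scale Rn7s1 stood at 333042 ± 44911 (SD, n = 6) in controls and 323691 ± 63923 (SD, n = 7) in MSUS samples. It exceeded n.R5s100 in 13 of 13 samples, by 3.66-fold as a geometric mean. The row n.R5s100 in turn exceeded the row Rnu1a1 by 2.11-fold in 13 of 13 samples, and Rnu1a1 exceeded Rn7sk by 1.71-fold in 13 of 13. Rn7sk exceeded Rpph1 in 9 of 13 samples, by 1.12-fold as a geometric mean, with ratios from 0.822 to 1.48. The difference between these 2 was not tested. Depletion of ribosomal cDNA and the loss of short fragments during library preparation act before these counts, so the order is that of the libraries. It is also an order of single rows. Near copies with rows of their own and at least 10 counts on average held 48.0% to 50.9% of the counts summed with Rnu1a1. For the 5S copies this was 10.6% to 14.2% of the counts summed with n.R5s100. These copies are not in the levels above.

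The members differed in how much they varied between samples. About the group means, the SD of the log2 CPM was 0.19 for Rn7sk, 0.26 for Rn7s1, 0.28 for Rpph1, 0.47 for Rnu1a1 and 0.59 for n.R5s100. Among the 57 genes with a mean of at least 10 log2 CPM, members included, the median SD was 0.17. Of these genes, 98.2% had a smaller SD than n.R5s100, which is all but n.R5s100 itself. For Rnu1a1 that share was 84.2%, and for Rn7sk it was 52.6%.

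Related structural RNAs, found by the start of their row name, numbered 12 beside the members, of which 10 had a mean of at least 10 counts. The most abundant were the U1 variant Rnu1b1 with 18965 counts on average, the U3 RNAs Rnu3b1 with 15419 and Rnu3a with 10237, the Y RNA Rny3 with 3851, a second U3 row Rnu3a.1 with 2681 and the U5 RNA Rnu5g with 1450. U3 guides ribosomal RNA cleavage in the nucleolus, U5 belongs to the spliceosome, and Y RNAs bind the Ro protein. Rnu3a.1 was at 0 in 1 sample and at 6076 counts in another, which separates it from the remaining rows. By limma voom, 0 of these 10 passed p under 0.05 between the groups.

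Among the members and the relatives found by row name, the spread between samples went with RNA length. The 3 RNAs of 300 to 331 nucleotides, Rn7s1, Rpph1 and Rn7sk, had SDs of 0.19 to 0.28. The 11 members and related RNAs of 71 to 216 nucleotides had SDs of 0.44 to 0.64. The second U3 row, Rnu3a.1, had an SD of 3.36 and is left out, because no annotated length was found under its name. Within this set found by row name, no RNA with an annotated length fell between these ranges of SD. Among those with counts, no annotated length lay between 216 and 300 nucleotides. Outside this set, the small nucleolar RNA LOC115487891, with a gene span of 144 bases, had SDs of 0.25 within controls and 0.38 within MSUS samples. Length and RNA class go together in this set, and abundance does in part. The 3 long RNAs were all abundant, while the short ones ran from Rnu73b with 25.3 counts on average to n.R5s100 with 126408. The part of each was not tested.

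**Figure D3:**
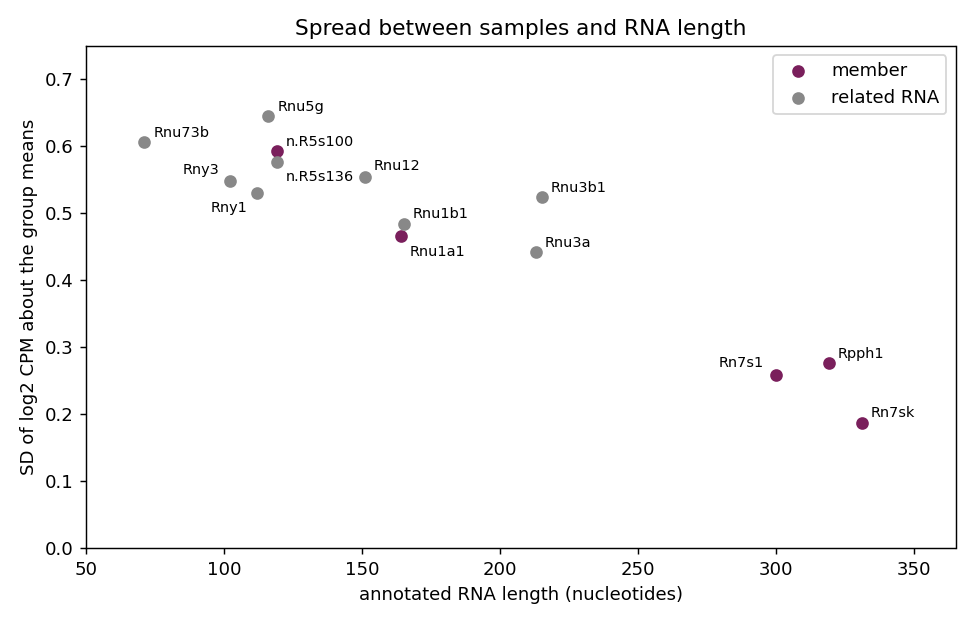
SD of the log2 CPM about the group means against the annotated length in nucleotides, for the 5 members (purple) and the related RNAs with an annotated length (grey). The 3 RNAs of 300 nucleotides or more lie at 0.28 or below, and all shorter RNAs shown lie at 0.44 or above.

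To ask whether the members moved together across samples, each was expressed as log2 of its count over the named counts outside the 6 members, a denominator that all of them share. Rnu1a1 and n.R5s100 followed each other closely, with Pearson's r = 0.969 and Spearman's rho = 0.951 over 13 samples (permutation test, adjusted p = 0.0001 for both, the smallest that 100000 resamples give after adjustment over 10 pairs). The relation held within controls (r = 0.957) and within MSUS samples (r = 0.982), and r was 0.948 without control 12 and MSUS 11. Both RNAs were lowest in MSUS 11 and highest in MSUS 23 on the log2 CPM scale.

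Rn7s1 and Rpph1 formed the second pair, with r = 0.854 and rho = 0.797 (permutation test, adjusted p = 0.0007 and 0.00875). Within controls r was 0.818, within MSUS samples it was 0.911, and without control 10 and MSUS 26 it was 0.724. Rn7s1 and Rnu1a1 had r = 0.670 and rho = 0.687 (permutation test, adjusted p = 0.0329 and 0.0392), with 0.524 within controls, 0.751 within MSUS samples and 0.630 without control 10 and MSUS 26. The relation of Rn7s1 with Rnu1a1 had an adjusted p of 0.0523 to 0.129 when control 14, control 24, MSUS 6, MSUS 13, MSUS 23 or MSUS 26 was left out. In all, 3 of 10 pairs passed an adjusted p under 0.05. Rpph1 and n.R5s100 were the least alike, with r = 0.193 and rho = 0.258 (permutation test, adjusted p = 0.525 and 0.398), from -0.114 within controls to 0.469 within MSUS samples.

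The related RNAs had a higher median r with the short members than with the long ones. As a description over the same 13 libraries and denominator, r with n.R5s100 ran from 0.592 to 0.966 over the 10 related rows, with a median of 0.910, and the median was 0.863 with Rnu1a1. With Rn7sk r ran from 0.216 to 0.760 with a median of 0.415, with Rn7s1 from -0.060 to 0.886 with a median of 0.336, and with Rpph1 from -0.383 to 0.635 with a median of 0.064. Rnu1b1, Rnu3b1 and Rny3 had r of 0.964, 0.966 and 0.961 with n.R5s100. Rnu3a had r of 0.889 with Rnu1a1, 0.886 with Rn7s1 and 0.786 with n.R5s100. Its r with Rn7s1 was the highest of the 10 related rows.

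**Figure D4:**
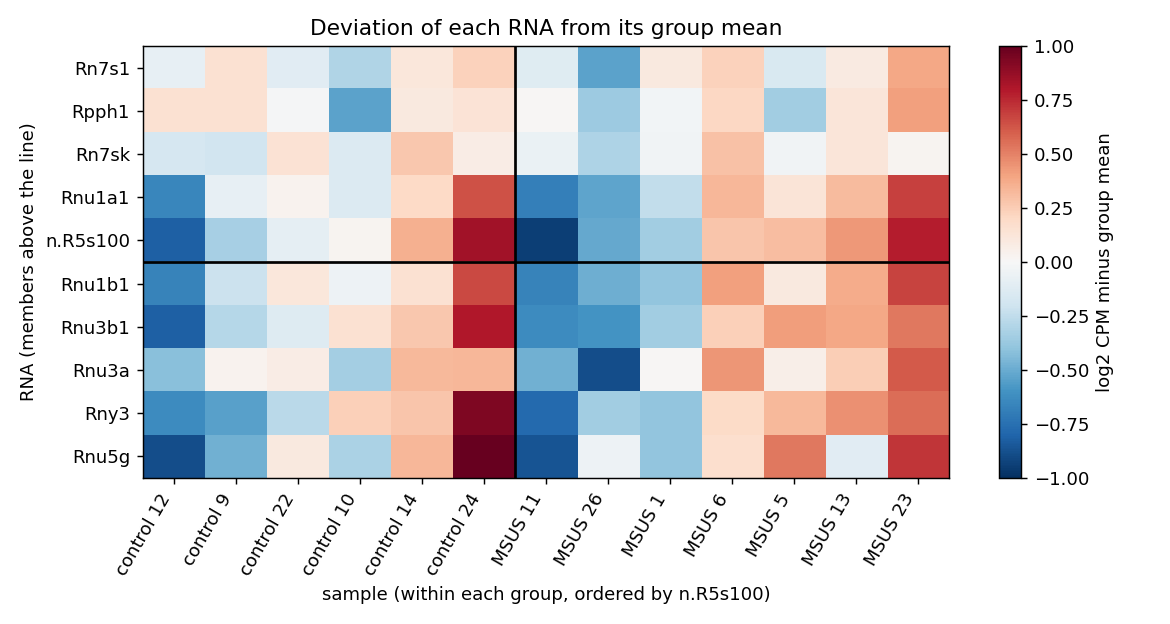
Log2 CPM of each RNA minus its group mean (colour) in the 13 samples, with the 5 members above the line and the 5 most abundant related RNAs with an annotated length below it. Samples run from low to high n.R5s100 within each group. Rnu1a1 and the related RNAs follow that order from blue to red, while Rn7s1, Rpph1 and Rn7sk are paler and follow it less.

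Library measures were set against each member in 40 relations, of which 3 passed an adjusted p under 0.05 by Pearson's r and 2 by Spearman's rho. Rn7s1 rose with the mean log2 CPM of 83 ribosomal protein genes, with r = 0.869 and rho = 0.780 (permutation test, adjusted p = 0.0052 and 0.0488), 0.919 within controls, 0.888 within MSUS samples and 0.675 without MSUS 5 and MSUS 26. Without MSUS 26 alone r was 0.748 and the adjusted p was 0.0547. Rpph1 did so with r = 0.863 and rho = 0.742 (permutation test, adjusted p = 0.0028 and 0.0518), 0.763 within controls, 0.891 within MSUS samples and 0.722 without MSUS 5 and MSUS 26. The score itself was 6.51 ± 0.12 (SD, n = 6) in controls and 6.39 ± 0.15 (SD, n = 7) in MSUS samples (exact permutation test, p = 0.173). Rn7s1 also passed by rho, but not by r, with the mean log2 CPM of the 5 Sertoli cell markers. Here rho was 0.797 and r was 0.664 (permutation test, adjusted p = 0.0488 and 0.106). Within controls r was 0.970, within MSUS samples it was 0.518, and without control 10 and control 24 it was 0.582.

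Rpph1 fell as Malat1, an abundant nuclear long noncoding RNA, rose, with r = -0.751 and rho = -0.742 (permutation test, adjusted p = 0.0381 and 0.0518). Within controls r was -0.714, within MSUS samples it was -0.753, and without control 24 and MSUS 5 it was -0.730. With the group means removed r was -0.716 and the adjusted p was 0.0753, so the call was lost. The relation was also sensitive to single samples, with an adjusted p of 0.0137 to 0.201 over the 13 fits without 1 sample, and it passed 0.05 only without control 24, MSUS 6 or MSUS 23. Malat1 was 0.68 higher in the MSUS group on the log2 ratio scale (exact permutation test, unadjusted p = 0.0280), and 0 of 7 samples lay below the control mean. That p was the smallest among the library measures compared between the groups and was not adjusted for their number. With Malat1 as a covariate, added after the data were seen, the log2 fold change of Rpph1 was 0.10, with a 95% interval from -0.14 to 0.34. That of Rn7s1 was 0.18, from -0.07 to 0.43. The part of Malat1 or of the ribosomal protein genes in the members' levels was not tested.

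Rnu1a1 and n.R5s100 showed no relation of that strength. With the ribosomal protein gene score, Rnu1a1 had r = 0.545 and rho = 0.495 (permutation test, adjusted p = 0.235 and 0.269), 0.492 within controls, 0.646 within MSUS samples and 0.509 without MSUS 5 and MSUS 26. Depth passed the threshold with 0 of 5 members, and r of Rn7s1 with the log2 total counts was -0.459 and rho was -0.500 (permutation test, adjusted p = 0.311 and 0.269), falling to -0.205 without control 10 and MSUS 23, with -0.920 within controls and -0.345 within MSUS samples.

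**Figure D5:**
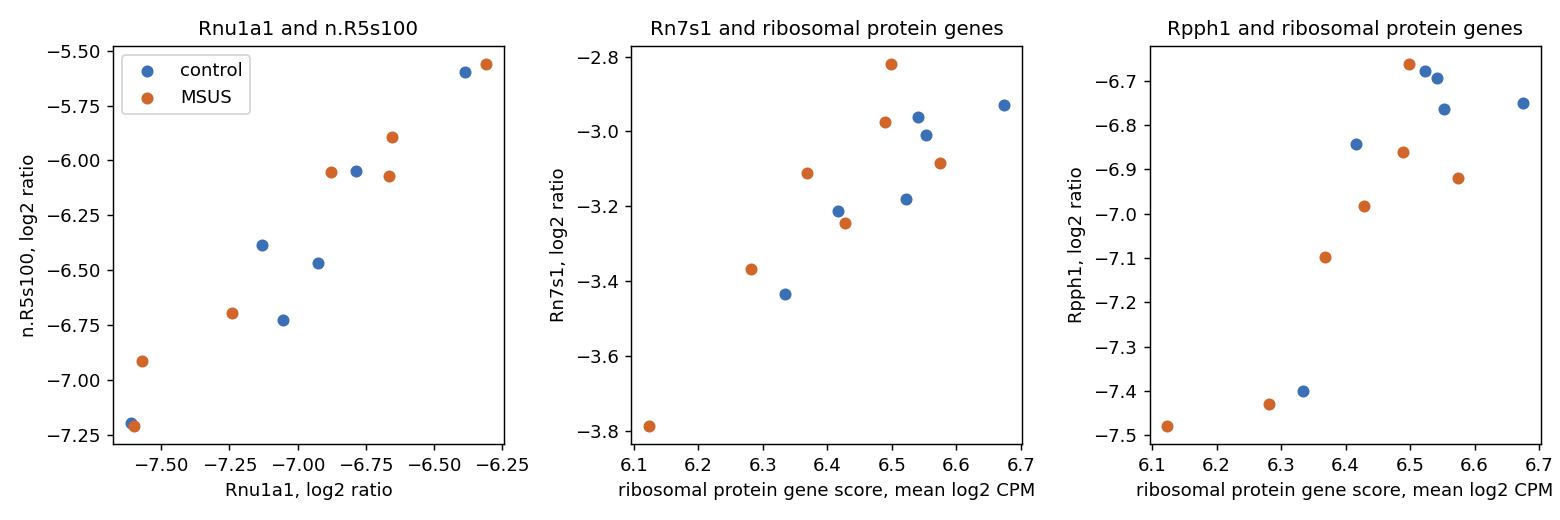
Each point is 1 sample, in log2 of the RNA's count over the named counts outside the 6 members. Left, Rnu1a1 against n.R5s100, which lie along 1 line (r = 0.969). Middle and right, Rn7s1 and Rpph1 against the mean log2 CPM of 83 ribosomal protein genes (r = 0.869 and 0.863), with MSUS 26 lowest in both.

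The genes whose pattern was most like each member, after removal of the group mean, were found over 13 samples. For Rn7s1 they were Atp5c1, a subunit of the mitochondrial ATP synthase, and Timm10b, of the mitochondrial protein import machinery, with r of 0.946 and 0.940. For Rpph1 they were the fucosidase gene Fuca2 (r = 0.934) and Mrpl12 of the mitochondrial ribosome (r = 0.930). For Rn7sk they were a small nucleolar RNA, LOC115487891 (r = 0.857), and Abhd11 (r = 0.838).

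Both rows most like Rnu1a1 were small RNAs, the U1 copy Gm22513 (row LOC115488051, r = 0.998) and the nucleolar RNA Snora23 (r = 0.987). Those most like n.R5s100 were a small nucleolar RNA, LOC115489002 (r = 0.992), and Dancr, a long noncoding RNA gene (r = 0.988). The r values are picked as the highest of 14421 genes and are a description.

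U1 and 5S RNAs are made from many gene copies, and the table resolves some of them. The U1 copies shown differ from Rnu1a1 at the capital letters. Gm22513, at chr12:54696782-54696945 on the plus strand, differs by the single change T60C, counted from the 5′ end of Rnu1a1. Rnu1b1, at chr3:96359953-96360117 on the minus strand, differs by C33T, T60C, T62C, C73T, C74G and A77G and by 1 gap, and Gm25890, at chr3:96486555-96486719 on the minus strand, has the same changes without C33T. U1b is known as the form that is prominent in embryonic mouse tissue.
Gm22513: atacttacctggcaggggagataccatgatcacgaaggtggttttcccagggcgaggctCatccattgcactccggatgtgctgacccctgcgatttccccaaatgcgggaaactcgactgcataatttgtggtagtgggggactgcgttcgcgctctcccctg
Rnu1b1: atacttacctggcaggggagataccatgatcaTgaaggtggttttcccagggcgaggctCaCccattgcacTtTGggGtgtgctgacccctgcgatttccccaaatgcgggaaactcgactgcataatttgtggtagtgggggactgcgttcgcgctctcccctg
Gm25890: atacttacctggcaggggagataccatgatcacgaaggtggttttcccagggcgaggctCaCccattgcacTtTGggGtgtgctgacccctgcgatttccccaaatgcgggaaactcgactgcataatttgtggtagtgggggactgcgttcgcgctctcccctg

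Gm22513 had 31397 counts on average, between 2.50 and 2.67 times fewer than Rnu1a1 in every sample. Rnu1b1 followed with 18965 counts and ratios of 4.0 to 4.79, and the copy Gm26244, which has 1 change, had 17329 counts. Gm25890 had 5560 counts. In all, 10 annotated U1 copies had a row with at least 10 counts on average, and all 10 keep the stretch that pairs with the 5′ splice site. Together they held 48.0% to 50.9% of the summed counts of these rows and Rnu1a1, and Rnu1a1 held the rest. Copies without a matched row or with fewer counts are not in this sum.

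The 5 U1 rows with the block T60C, T62C, C73T, C74G and A77G held 18.5% ± 0.64 (SD, n = 6) of the U1 counts in controls and 18.3% ± 0.89 (SD, n = 7) in MSUS samples. Rnu1a1 itself varied 2.59-fold between samples, while the share of this block stayed between 16.4% and 19.5%. These rows were grouped by sequence after their counts were seen, and no test was run on them.

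Of the 5S copies, n-R5s106 had a row with 17034 counts on average, which was 11.6% ± 1.1 (SD, n = 6) of the summed counts of this row and n.R5s100 in controls and 12.1% ± 1.07 (SD, n = 7) in MSUS samples. The copy n-R5s136 had 75.2 counts, between 990 and 2667 times fewer than n.R5s100. The rows of these 2 copies thus differed widely in counts.

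Counts of such copies are uncertain. Besides the copies with rows, 6 other annotated transcripts are identical to Rnu1a1 and 31 to n.R5s100, and Rn7s2 is identical to Rn7s1; none of these has a row under its own name. Stretches of 31 bases from 100% of Rnu1a1 and of n.R5s100, 87.4% of Rn7s1, 72.8% of Rn7sk and 70.2% of Rpph1 also occur in other, non-identical transcripts, and Salmon divides reads from shared stretches by estimation. The counts of the 5 rows therefore rest on that division, and the Rnu1a1 row holds only part of the U1 counts. For Rpph1 the transcript sharing most is one of Ccnb1ip1, whose row had 18.4 counts on average. Of the 17 near copies of U1 and 5S, 0 passed p under 0.05 by limma voom.

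Genes for the proteins that work with these RNAs were compared in the same fit, as 6 lists with 71 of 73 genes tested. At p under 0.05, 4 rose and 1 fell in MSUS samples, beside 3.02% and 2.4% of all genes, with 0 at an adjusted p under 0.05, and the median log2 fold change was -0.03 (-0.0018 over all genes). The count of 5 was 8 without control 10 and 3 without control 12 or control 14. The signal recognition particle and its receptor had 0 of 10 called, and Srp9, a protein of the Alu domain, had the smallest p, with a log2 fold change of -0.13 ± 0.07 (SE; limma voom, p = 0.0794, adjusted p = 0.878; exact permutation test, p = 0.0583), and it was below the control mean in 7 of 7 MSUS samples.

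For the 7SK and P-TEFb proteins, 1 of 7 was called. This was Ccnt2, a cyclin partner of the kinase Cdk9, at 5.54 to 6.0 log2 CPM in controls and 5.83 to 6.28 in MSUS samples. It rose by a log2 fold change of 0.25 ± 0.09 (SE; limma voom, p = 0.0086, adjusted p = 0.878; exact permutation test, p = 0.0163), and 7 of 7 MSUS values exceeded the mean of controls. Of the U1 and Sm proteins, 1 of 10 was called, Snrnp70, the U1-specific protein that binds the first stem-loop, at 6.83 to 7.28 log2 CPM in controls and 7.01 to 7.41 in MSUS samples. It rose by 0.19 ± 0.08 (SE; limma voom, p = 0.0275, adjusted p = 0.878; exact permutation test, p = 0.0466). The row Rnu1a1 had a log2 fold change of 0.02, with a 95% interval from -0.42 to 0.45 that includes 0.19. The difference between the protein gene and the RNA was not tested.

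The RNase P and RNase MRP proteins had 0 of 10 called. Their median log2 fold change was -0.15, with 9 of 10 below 0, and Rpp30 had the smallest p, at -0.32 ± 0.15 (SE; limma voom, p = 0.0508, adjusted p = 0.878; exact permutation test, p = 0.0717). The 5S ribonucleoprotein genes had 0 of 5 called, and Rpf2, a 5S assembly factor, had the smallest p, at 0.16 ± 0.12 (SE; limma voom, p = 0.192, adjusted p = 0.889; exact permutation test, p = 0.166).

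Of 29 genes of RNA polymerase III, the snRNA activating complex and La, 2 rose and 1 fell. Snapc4, the largest subunit of the complex that starts U1 and 7SK transcription, rose by 0.33 ± 0.12 (SE; limma voom, p = 0.0119; exact permutation test, p = 0.0315). Polr3a, the largest subunit of RNA polymerase III, rose by 0.19 ± 0.07 (SE; limma voom, p = 0.0205; exact permutation test, p = 0.0262). Snapc5, a small subunit of the same activating complex, fell by 0.34 ± 0.15 on the log2 scale (SE; limma voom, p = 0.0366; exact permutation test, p = 0.0361). For all 3 the adjusted p was 0.878, and the groups overlapped.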

How the data were processed

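RNA of Sertoli cells from 6 control and 7 MSUS males was sequenced single-end at 100 bp. The authors trimmed the reads with Trim Galore 0.6.5, assigned them with Salmon 1.1.0 to GENCODE vM23 transcripts and deposited estimated counts per gene, which are not normalized. How transcripts were summed to genes is not given in the sources used here. Salmon's estimated counts divide reads among similar transcripts, which bears on every member. The table has 54281 features, of which the 27170 that carry no gene name entered neither the library totals nor a test, and 0 columns could not be matched to a sample. Groups came from the sample titles. Estimated counts were rounded. No pair of samples agreed within sampling noise (6.07 to 48.8 times the noise per gene over 78 pairs).

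Groups were compared by voom and limma 3.58.1 after TMM normalization in edgeR 4.0.16 (R 4.3.3), as in the methods of the study, over 14421 genes that passed filterByExpr, with Benjamini-Hochberg adjustment. For levels on the log2 CPM scale, the prior count was 2. Shares were compared by exact permutation tests, two-sided, and relations by permutation tests with 100000 resamples, adjusted over 10 pairs and 40 relations. These families were planned with Rmrp, which had no counts. Alternatives were edgeR's quasi-likelihood test, DESeq2 1.42.0, other normalizations and filters, sample quality weights, added shared reads and leaving out each sample. The fits with a covariate and the scores as ratios were added after the data were seen. The fits and permutation tests were tested on simulated data.

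The members and lists were chosen with earlier results of these data known. Named beside the 6 members were the 6 most abundant relatives by row name, of each partner list the gene with the smallest p and those with p under 0.05, and the 2 genes most like each member. The U1 and 5S copies were named after their counts were seen, as annotated transcripts within 3 bases of a member's length that share a stretch of 31 bases with it and have at least 10 counts on average. Their rows were matched by symbol or RefSeq gene ID. The litters of the mice, which the study recorded, were not used here, so p-values measure the spread between these samples. Each of the 5 RNAs had at least 46524 counts in every library, so counting noise is small beside the spread between samples. Each library came from a different mouse, so differences between mice, cell sorting and library preparation cannot be told apart in that spread. A high count does not limit the error from dividing reads among similar transcripts. Sequences and positions of some RNAs are not reported here.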

Additional observations from a re-analysis of the deposited data

Results flagged for a closer look

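The share of Rpph1 in control 10, 0.526% of the named counts, lay far from the other 5 controls. Its gap to the next control was 0.707 of the range of the group, above the Dixon limit for 6 samples at the 95% level. It was the only such value in 12 groups tested (5 RNAs and their sum in each group), and chance flags about 1 in 20 groups. Control 10 also had the most total counts, 18649819, and the highest Malat1 ratio of the controls, -9.05 on the log2 scale, and the lowest ribosomal protein gene score of the controls, 6.33. The part of these in its Rpph1 level was not tested.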

How the results depend on the processing

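No paired analysis was run, because the labels name no pairs and control and MSUS samples share none of the numbers in their titles. The count of members called was 0 under every other test, normalization, filter, weighting and covariate tried, and 0 to 1 when 1 sample was left out. The log2 fold change ranged from -0.12 to 0.039 for Rn7s1, from -0.041 to 0.065 for Rn7sk, from -0.29 to -0.12 for Rpph1, from -0.11 to 0.14 for Rnu1a1 and from -0.080 to 0.25 for n.R5s100 when 1 sample was left out. Signs turned elsewhere for Rn7sk with library size alone (-0.0079) and with unnamed features kept (-0.00026), for Rn7s1 with Malat1 (0.18) or the ribosomal protein gene score (0.13) as a covariate, and for Rpph1 with the same covariates (0.10 and 0.00057). The cause was not tested. The difference in the members' summed share ranged from -0.975 to 0.243 percentage points without 1 sample, and kept its sign with the other denominator, scale and member choices. By Pearson's r, relations with library measures that passed numbered 2 to 3 without 1 sample and 5 with the scores as ratios, and pairs numbered 2 to 4. Partner genes called numbered 3 to 8 without 1 sample. With at least 46524 counts in every library, the 5 RNAs were not limited by depth, and how the division of reads between copies bears on them was not tested.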
